A study of Mus musculus with 7 samples.

Results

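The AP-1 family was described here through 10 genes, Fos, Fosb, Fosl2, Jun, Junb, Jund, Batf, Batf3, Atf3 and Maff, picked by name from the 48440 genes of the deposited tables. They were named after the exon read differences between infants and adults had been seen, so those differences are given as a description, with no p for any of the 10. How many of them passed each fit over all genes is printed only beside the share of all genes that passed. RNA was sequenced from CD11b+ migratory dendritic cells of B6 mice, sorted from the mediastinal lymph node, which drains the lung. The infant libraries, 4 in all, came from mice of 2 to 3 weeks, and the adult libraries, 3 in all, from mice of 7 weeks. Mice of both ages had received house dust mite allergen and LPS intranasally 24 hours before the cells were sorted as CD11c+, MHCII high and CD11b+ and as negative for B220, CD64 and CD103. No untreated mice were analysed here, and the number of animals behind each library is not stated in the labels, so SDs measure the spread between libraries.

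AP-1 is a dimeric transcription factor built from proteins with a basic DNA-binding region and a leucine zipper. Fos proteins pair with Jun proteins, while Jun proteins can also pair with each other, with ATF proteins and with BATF proteins. In dendritic cells Fos, Fosb, Jun, Junb and Atf3 are induced quickly and briefly through MAP kinases when pattern or cytokine receptors are engaged, or when cells are handled. Batf3 is known for the development of CD103+ and CD8a+ dendritic cells, and BATF proteins bind composite sites together with Irf4 or Irf8.

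The infant libraries held 18022302 to 20377361 exon reads and the adult libraries 20064331 to 22316484. Of the 10 genes, 9 passed the filter on low counts among 12261 tested genes, and Fosb did not. CPM are exon reads relative to the library size after TMM scaling. The 16 markers of CD11b+ migratory dendritic cells summed to 51118 to 70836 CPM in infants and 48597 to 57808 CPM in adults, which overlapped. Among them Ccr7, the receptor that guides cells to the lymph node, did not overlap. It stood at 4599 to 5218 CPM in infants and 5518 to 6392 CPM in adults. Zbtb46 did not overlap either, at 163 to 201 CPM in infants and 217 to 242 CPM in adults. Fscn1, H2-Ab1, Itgax and Sirpa overlapped. Itgam, which encodes CD11b, was low, at 9.83 to 21.2 CPM in infants and 15.7 to 17.5 CPM in adults. For 9 marker lists of other cell types, the summed level overlapped between the ages in every list. A sum follows its most abundant genes and can hide single markers. By edgeR at an unadjusted p under 0.05, in either direction, there were 3 of 9 tested macrophage markers. There were also 2 of 10 cDC1 and 1 of 4 B cell markers, and 0 in the remaining lists. Of all tested genes, 6.73% were lower at that p. The 10 macrophage markers summed to 419 to 1317 CPM in infants and 464 to 1080 CPM in adults, and the 10 markers of the cDC1 lineage to 965 to 1310.5 CPM in infants and 729 to 1085 CPM in adults. Of the cDC1 markers, Xcr1 stood at 0.578 to 2.02 CPM in infants and 0.947 to 3.04 CPM in adults. Clec9a stood at 1.14 to 2.47 CPM in infants and 1.22 to 2.89 CPM in adults. Itgae, which encodes CD103, stood at 0.586 to 1.26 CPM in infants and 1.39 to 3.24 CPM in adults, without overlap. Ly6g, a neutrophil marker, had 0 reads in every library. Infant 2 stood apart on the first principal component, where it scored 65.7, the remaining infants -14.2 to 8.59 and the adults -22.3 to -20.9. The table of adult 3 bears an internal library name from another naming series than those of the other 6 tables, which follow their titles. Adult 3 was kept as an adult by its label, and results that rest on it are given without it as well.

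Fos, Fosb, Fosl2, Jun, Jund and Atf3 lay lower in infants, Junb overlapped between the ages, and Batf, Batf3 and Maff lay close to the adult level. The log2 fold change, infant over adult, was below 0 for 7 of the 9 fitted genes, against 49.8% of all tested genes. In 5 of the 9, Fos, Fosl2, Jun, Jund and Atf3, every infant library lay below every adult library, against 7.58% of all tested genes. Since the genes were named with this comparison known, nothing is read from these shares. The median over the 9 was -0.70, against 0.0016 over all tested genes, and -0.76 without infant 2. Without adult 3, 6 of the 9 were below 0 and the median was -0.43, with Fos at -3.17, Jun at -1.19, Jund at -0.67 and Atf3 at -1.41. Higher in infants without overlap were 0 of the 9, against 7.97% of all tested genes. With edgeR (quasi-likelihood, Benjamini-Hochberg over all genes), 0 of the 9 passed, against 0.0163% of all genes, and 5 lower in infants had an unadjusted p under 0.05, against 6.73%. DESeq2 called 4 lower (Fos, Jun, Jund and Atf3), against 0.979% of all genes, and limma-voom called 1, Fos, against 0.0163%. In the intron reads, edgeR called 1 of 7 fitted genes, Atf3, lower in infants, against 0.479% of 9602 genes and this call was lost without infant 3, infant 4, adult 2 or adult 3, where 1 to 6 genes passed in all, against 52 with every library. Without infant 1, Fos passed in introns beside Atf3, against 1.40% of all genes. From exon reads edgeR called Fos without infant 1, against 0.0329% of all genes, and without adult 1, against 0.0796%. In bulk RNA, fewer cells that express a gene and less RNA per cell cannot be told apart.

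**Figure D1:**
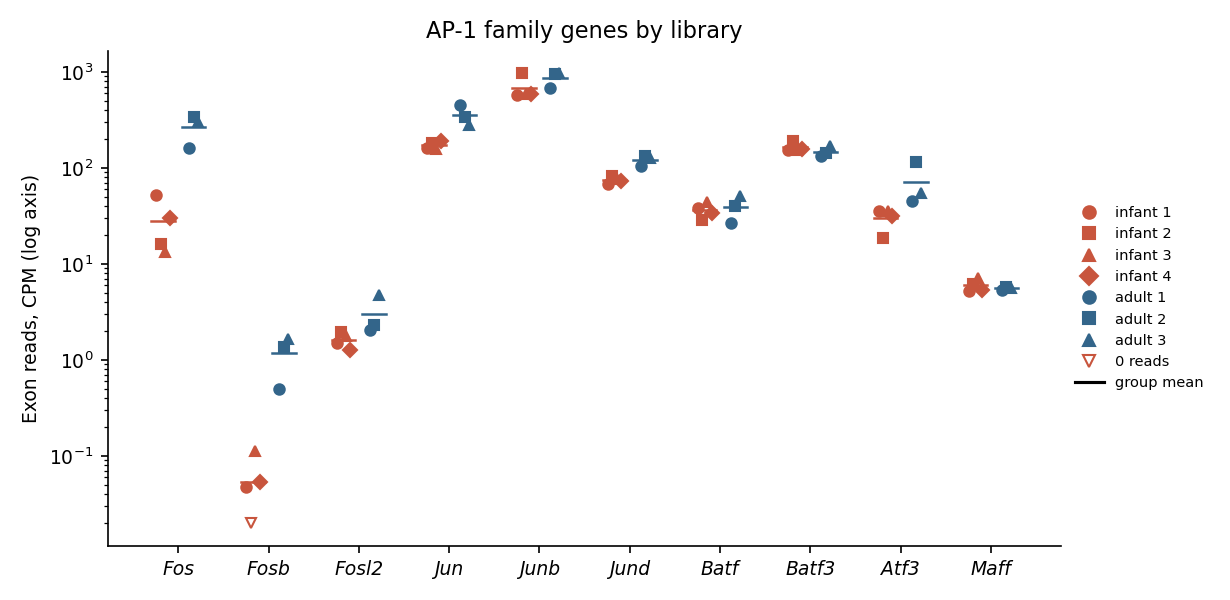
Exon reads of the 10 AP-1 genes in CPM on a log axis, with 1 symbol per library, infants left of adults, and a line at each group's mean. The open triangle marks 0 reads. Fos and Fosb are separated widest, while Batf, Batf3 and Maff overlap.

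Fos encodes the founding member of the Fos proteins, an immediate-early product that pairs with Jun. It lies at 85473890 to 85477273 of chromosome 12, on the plus strand in mm10, and no other annotated gene overlaps it. Its level was 51.9, 16.1, 13.5 and 30.2 CPM in infants 1 to 4, against 162, 340.1 and 302 CPM in adults 1 to 3. Every infant library lay below every adult library, with infant 1 the highest of the infants and adult 1 the lowest of the adults. The means were 27.9 ± 17.6 CPM in infants (SD, n = 4) and 268 ± 93.8 CPM in adults (SD, n = 3), which is -3.26 on the log2 scale (SE 0.44), or 9.59-fold lower in infants by the ratio of means. The highest infant was 3.85 times the lowest, and the highest adult 2.10 times the lowest. Leaving out each library in turn gave log2 fold changes of -3.75 to -3.04.

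The promoter of Fos is shown because Fos had the widest difference of the fitted genes, and that of Jun, its usual partner, because its window holds another motif. Both are the 250 bases before the RefSeq start, from RefSeq on GRCm38.p6, written 5′ to 3′ in the sense of the gene. For Fos this is chr12:85473640-85473889 on the plus strand, and for Jun chr4:95052223-95052472 on the minus strand. Capitals mark matches to TGACG, the core of the cyclic AMP response element, to TATAAA and to TGACATCA, a form of the AP-1 site known from the Jun promoter that was searched after the sequence had been seen.
Fos: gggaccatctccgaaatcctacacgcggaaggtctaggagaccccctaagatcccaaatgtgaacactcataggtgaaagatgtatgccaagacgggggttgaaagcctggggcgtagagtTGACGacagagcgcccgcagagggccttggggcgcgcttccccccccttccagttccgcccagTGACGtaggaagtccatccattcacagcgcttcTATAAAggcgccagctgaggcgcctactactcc
Jun: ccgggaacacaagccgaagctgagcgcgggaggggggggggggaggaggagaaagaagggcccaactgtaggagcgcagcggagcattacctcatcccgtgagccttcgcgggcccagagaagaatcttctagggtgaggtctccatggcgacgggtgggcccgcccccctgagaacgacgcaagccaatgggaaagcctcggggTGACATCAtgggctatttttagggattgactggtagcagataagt

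In the Fos window TGACG began at -129 and at -66 from the start and TATAAA at -33, and in the Jun window TGACATCA began at -45. RefSeq windows were found for all 10 genes, 12 in all since Maff has several starts. The RefSeq starts of Jund and Junb, and the earlier ones of Maff, lie upstream of the deposited gene starts. Those of Fosb, Fosl2, Batf, Batf3 and Atf3, and the last one of Maff, lie inside the gene. On both strands, TGACG stood in a window of 6 of the 10 genes (Fos, Fosb, Junb, Batf, Atf3 and Maff), against 17.8% of 32851 windows of the same length over all genes. TGACG matches include those inside TGACGTCA. A gene counts here if any of its windows matches, while the shares are of single windows. Maff, with several windows, thus has more ways to count. TGACATCA stood in windows of 2 genes, Jun and Maff, against 2.93% of all windows. The full cyclic AMP element TGACGTCA stood in 1 window of Maff, against 1.55%, and the consensus AP-1 site TGAGTCA in 0 of the 10 genes, against 4.46%. The CArG box, the site of serum response factor, stood in the windows of 0 of the 10 genes, against 1.47% of all windows. Bases outside these windows were not searched, so a motif missing here may still lie elsewhere near the gene, in Fos as in the others. TGACG was found both in genes lower in infants and in Batf and Maff, which lay near the adult level.

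Fos introns and exon junctions were read separately. Reads across an exon junction numbered 284, 76, 62 and 140 in infants 1 to 4, against 1043, 2207 and 1726 in adults 1 to 3. They gave a log2 fold change of -3.44 (SE 0.44), close to that of the exon reads. Intron reads, which can come from unspliced RNA, numbered 64, 11, 30 and 43 in infants, against 166, 125 and 91 in adults. Their origin was not tested. Scaled to the intron reads of each library, every infant again lay below every adult, as in 6.29% of all genes fitted from introns, and the log2 fold change was -1.52 (SE 0.39), smaller than in exons. Introns took 5.52%, 3.46%, 11.3% and 7.04% of the Fos reads in infants 1 to 4, against 4.40%, 1.63% and 1.46% in adults 1 to 3. These shares overlapped, since infant 2 lay below adult 1. Over all genes introns took 4.45% to 5.37% of the reads in infants and 4.93% to 6.36% in adults.

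**Figure D2:**
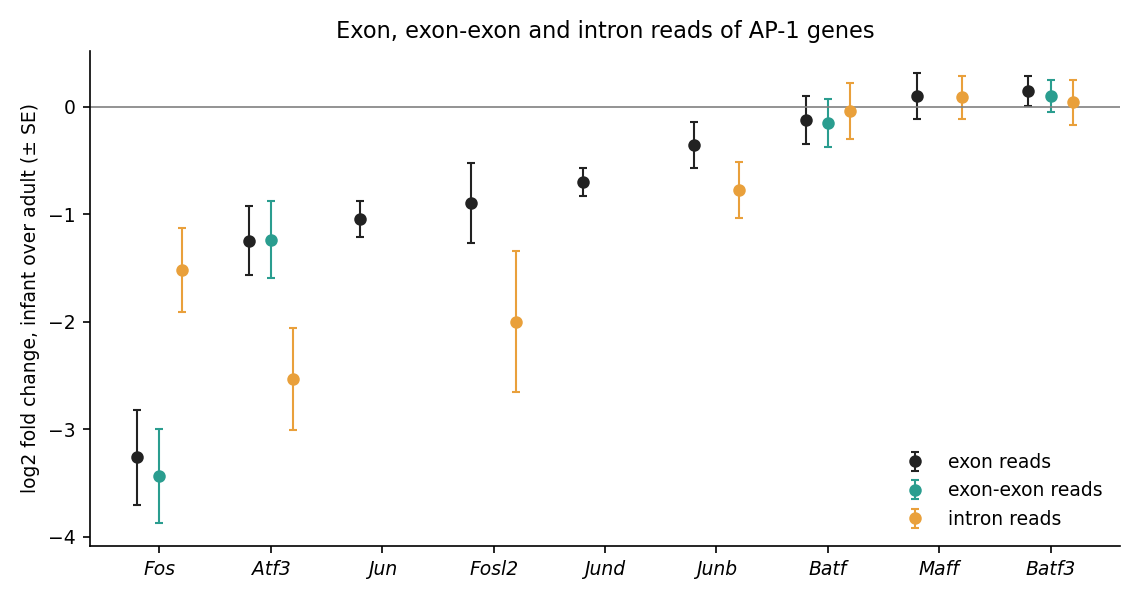
log2 fold change, infant over adult, with its SE, for the 9 fitted genes from exon reads (black), exon-exon reads (green) and intron reads (orange), each fitted over all genes with its own scaling. Missing points are genes without enough reads of that class. The orange point of Junb comes from reads outside its coding transcript and is not read as unspliced RNA. Fos lies at -3.26 in exons and -1.52 in introns, and Atf3 at -1.25 in exons and -2.53 in introns.

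Fosb, a Fos relative that is also induced early, was hardly detected in infants. It lies at 19302696 to 19310051 of chromosome 7, on the minus strand. Its exon reads were 1, 0, 2 and 1 in infants 1 to 4, against 11, 30 and 34 in adults 1 to 3. Every infant lay below every adult. The reads sum to 4 in infants and 75 in adults, which is 0.0517 CPM and 1.17 CPM of the summed exon reads, and the 0 reads of infant 2 allow up to 0.149 CPM. Fosb intron reads numbered 0 in every infant library, against 7, 20 and 3 in adults. Fosl2, which encodes Fra-2, a Fos protein without the strong activation domain of Fos, was low at both ages. It spans 32135801 to 32157842 of chromosome 5, on the plus strand. It stood at 1.52, 1.95, 1.77 and 1.28 CPM in infants 1 to 4, against 2.07, 2.30 and 4.71 CPM in adults 1 to 3, a log2 fold change of -0.89 (SE 0.37). The groups did not overlap, but infant 2 and adult 1 lay close, and without adult 3 the log2 fold change was -0.43. Fosl2 intron reads numbered 4, 2, 1 and 8 in infants 1 to 4, against 19, 21 and 16 in adults 1 to 3, again without overlap. Fosl1, the remaining Fos gene, was at 0.0561 ± 0.0807 CPM in infants (SD, n = 4) and 0.0898 ± 0.156 CPM in adults (SD, n = 3), too low to fit.

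Among the Jun genes, Jun and Jund were lower in infants in every library, and Junb overlapped. Jun encodes the classic partner of Fos and is a single-exon gene at 95049034 to 95052222 of chromosome 4, on the minus strand. Its level was 160.1, 181, 156 and 193 CPM in infants 1 to 4, against 449, 339 and 279 CPM in adults 1 to 3. The means were 173 ± 17.3 CPM in infants (SD, n = 4) and 355 ± 86.2 CPM in adults (SD, n = 3), which is -1.04 on the log2 scale (SE 0.17). Adult 1, the lowest adult for Fos, was the highest for Jun. Jund, the most steadily expressed Jun gene in many tissues, stood at 68.0, 83.2, 76.1 and 73.3 CPM in infants 1 to 4, against 106, 133 and 127 CPM in adults 1 to 3, a log2 fold change of -0.70 (SE 0.13). Its libraries lay close together within each age, with the highest infant 1.22 times the lowest and the highest adult 1.26 times the lowest.

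Some reads of these genes could not be placed in 1 position. Of the exon reads, 46.1% for Jund and 20.9% for Jun mapped to more than 1 place, and 0% for the other 8 genes. With uniquely mapped reads alone the log2 fold changes were -0.68 for Jund and -1.05 for Jun. Antisense genes overlap both, Junos over Jun and Gm11175 over Jund. Jund spans 70698949 to 70700616 of chromosome 8, on the plus strand. Use of strand in the counting is not stated, so reads of a gene and its antisense partner cannot be told apart.

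Junb, which pairs with Fos and BATF proteins and can restrain Jun, had the highest level of the 10 genes. Its level was 582, 968, 586 and 586 CPM in infants 1 to 4, against 687, 958 and 971 CPM in adults 1 to 3. Infant 2 lay among the adults, and the other 3 infants lay at 582 to 586 CPM, below every adult. The log2 fold change was -0.36 (SE 0.21), and -0.58 (SE 0.13) without infant 2. Junb lies at 84974484 to 84978718 of chromosome 8, on the minus strand, where Prdx2 overlaps it on the other strand. Its coding transcript has 1 exon, and the reads the files call intronic, 229 in infants and 353 in adults, fall outside it, so they are not read as unspliced Junb RNA.

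Atf3, an ATF protein that binds DNA with Jun proteins and is known to restrain inflammatory genes in macrophages, was lower in infants in exons and introns. It lies at 191170296 to 191218039 of chromosome 1, on the minus strand, and a small RNA gene, Gm24748, overlaps it. Its level was 35.4, 18.7, 35.4 and 31.3 CPM in infants 1 to 4, against 45.3, 115 and 54.6 CPM in adults 1 to 3. The log2 fold change was -1.25 (SE 0.32), and -0.73 without adult 2. Adult 2 stood far above the other adults, and infant 2 below the other infants. Intron reads numbered 21, 4, 4 and 13 in infants, against 54, 128 and 47 in adults, a log2 fold change of -2.53 (SE 0.47). Introns took 2.73%, 1.11%, 0.640% and 2.16% of its reads in infants 1 to 4, against 5.08%, 4.78% and 4.05% in adults 1 to 3, with no overlap. For Atf3 the intron difference was thus wider than the exon difference, and for Fos the exon difference was wider than the intron difference. Whether these gaps exceed the error was not tested.

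**Figure D3:**
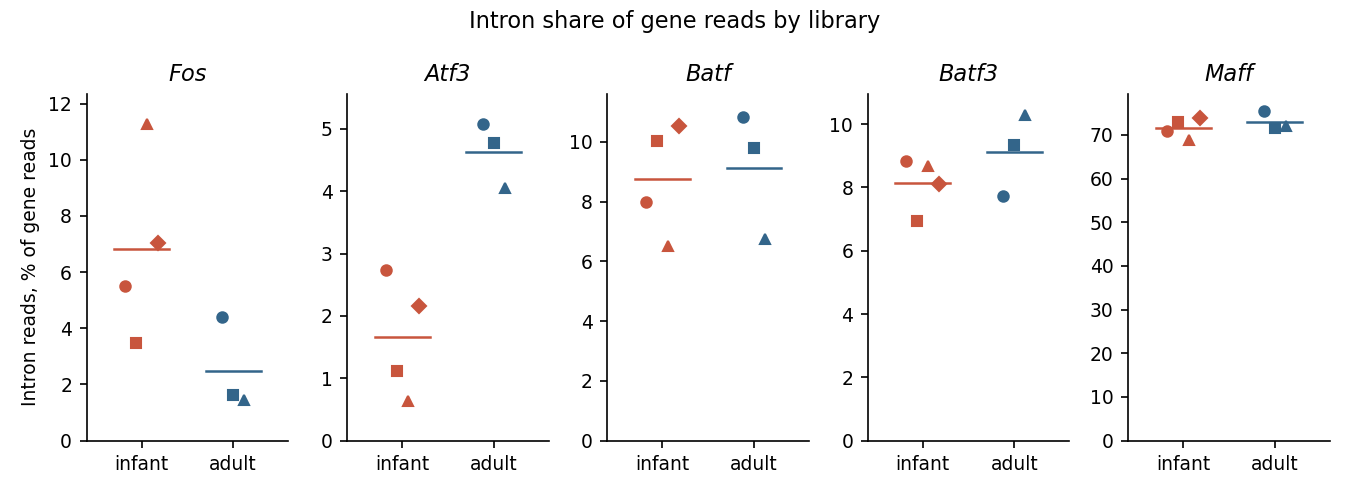
Intron reads as a percent of intron and exon reads in each library, infants left of adults, with 1 symbol per library as in the plot of levels and a line at the mean. Infants lie below adults for Atf3, infants 1, 3 and 4 lie above all adults for Fos, and Batf, Batf3 and Maff overlap.

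The BATF genes overlapped between the ages. Batf encodes a protein that has a zipper but no activation domain and works with Irf4 and Jun proteins. It stood at 38.1, 28.8, 44.3 and 34.0 CPM in infants 1 to 4, against 26.9, 40.4 and 51.5 CPM in adults 1 to 3, a log2 fold change of -0.13 (SE 0.22). The spread within each age was wider than the gap between them. Batf3 stood at 152, 193, 153 and 158 CPM in infants 1 to 4, against 133, 142 and 169.9 CPM in adults 1 to 3, a log2 fold change of 0.15 (SE 0.14). Infant 2 was the highest library for Batf3, and the other infants lay between adults 2 and 3. Exon-exon reads gave log2 fold changes of -0.15 (SE 0.23) for Batf and 0.10 (SE 0.15) for Batf3, and intron reads -0.04 (SE 0.26) and 0.04 (SE 0.21). In units per length, Batf3 was 4.32, 17.6, 16.8 and 7.68 times the level of Fos in infants 1 to 4, against 1.21, 0.615 and 0.8294 times in adults 1 to 3.

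Maff, a small Maf protein without an activation domain that pairs with Nrf proteins, varied least of the 10 over the 7 libraries. Its gene spans 79347541 to 79359072 of chromosome 15, on the plus strand. It stood at 5.26, 6.15, 7.13 and 5.38 CPM in infants 1 to 4, against 5.39, 5.73 and 5.64 CPM in adults 1 to 3, a log2 fold change of 0.10 (SE 0.21). The groups overlapped. Most of its reads lay in introns, 1146 against 454 exon reads in infants and 984 against 362 exon reads in adults, or 71.6% of its reads in infants and 73.1% in adults. The log2 fold change of the intron reads was 0.09 (SE 0.20), and only 42 reads in infants and 24 in adults crossed a junction.

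Fos and Jun messages are known to decay quickly through AU-rich elements in the 3′ untranslated region. The core of such an element, TTATTTATT in DNA letters, stood in the longest annotated 3′ region of 3 of the 10 genes (Fos, Fosl2 and Maff), against 7.72% of 20679 genes in GENCODE M21. A stretch of 25 bases around it is shown for Fos, with the widest fitted difference, and for Maff, with almost none, with the core in capitals. Maff holds 2 copies, at positions 933 and 1132 of the region, and the first is shown.
Fos: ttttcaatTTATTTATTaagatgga
Maff: ccacactcTTATTTATTgcacgaat
The shorter pentamer ATTTA occurred 4.91 times per kilobase in Fos, denser than in 92.2% of genes, and 4.12 times in Junb, 3.28 in Maff and 3.24 in Jun. Batf and Batf3 had none. A match shows only that the letters are present.

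Neighbouring genes differed from each other. Batf lies 209 kb from Fos on chromosome 12, at 85686669 to 85709087, with 1 protein-coding gene, Jdp2, between them. Jdp2 encodes a repressor that pairs with Jun proteins, and it stood at 18.1, 13.9, 21.5 and 11.98 CPM in infants 1 to 4, against 15.5, 27.1 and 55.2 CPM in adults 1 to 3, which is -0.99 on the log2 scale (SE 0.37, edgeR adjusted p = 0.325). Its groups overlapped, with adult 1 among the infants, and without adult 3 the log2 fold change was -0.38. Batf3 and Atf3 lie 61.4 kb apart on chromosome 1, and Batf3 spans 191097847 to 191108945. The log2 fold changes along chromosome 12 were thus -3.26 for Fos, -0.99 for Jdp2 and -0.13 for Batf (-3.17, -0.38 and 0.11 without adult 3), and along chromosome 1 they were 0.15 for Batf3 and -1.25 for Atf3.

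Per length, the genes were ordered by the authors' RPKM, exon reads divided by exon length and library size. In infants the order was Junb, Batf3, Jun, Jund, Batf, Atf3, Fos, Maff, Fosl2 and Fosb, and the ranges of neighbours overlapped only for Jund with Batf and for Atf3 with Fos. In adults it was Junb, Fos, Jun, Batf3, Jund, Batf, Atf3, Maff, Fosl2 and Fosb, with overlap of Fos with Jun, Jun with Batf3, Batf with Atf3 and Fosl2 with Fosb. Junb averaged 273 ± 65.7 RPKM in infants (SD, n = 4) and 359.6 ± 68.8 RPKM in adults (SD, n = 3). Fos averaged 11.2 ± 7.44 RPKM in infants (SD, n = 4), above 68.6% of tested genes, and 108 ± 38.5 RPKM in adults (SD, n = 3), above 95.7% of them. Fos took 4.24%, 0.984%, 1.11% and 2.46% of the summed RPKM of the 10 genes in infants 1 to 4, against 9.74%, 15.5% and 14.2% in adults 1 to 3. Batf3 took 17.3% to 18.9% in infants and 9.51% to 11.8% in adults. The summed RPKM itself was 477 to 615 in infants and 664 to 891 in adults.

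**Figure D4:**
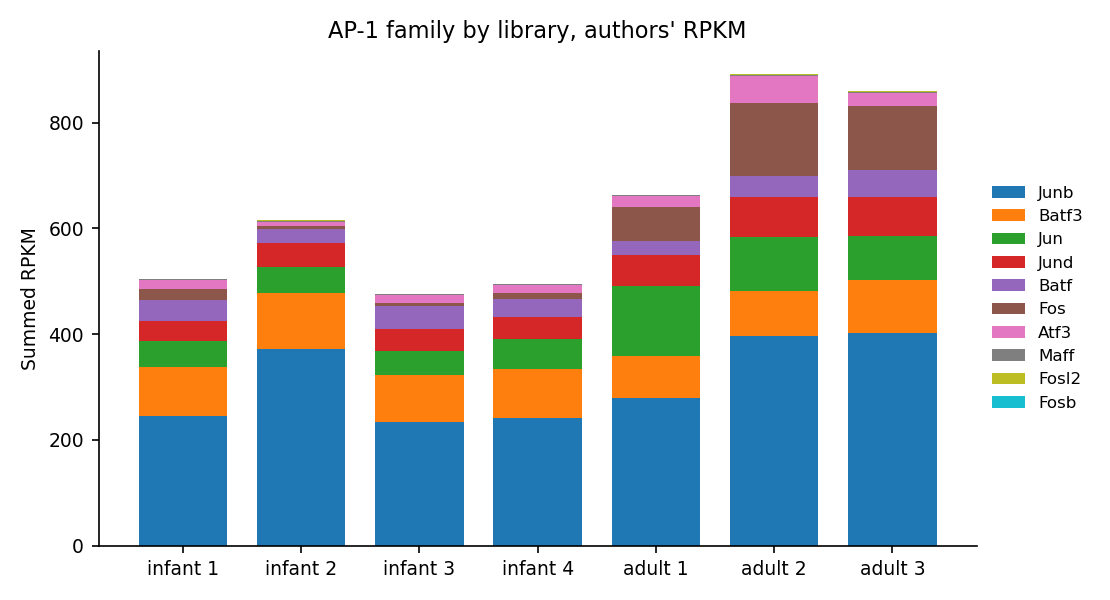
Summed RPKM of the 10 AP-1 genes in each library, infants left of adults, with each gene's part as a block. Junb is the largest block in every library, the Fos block is 0.984% to 4.24% of the bar in infants and 9.74% to 15.5% in adults, and the Batf3 block stands for 88.5 to 106 RPKM in infants and 78.2 to 101 RPKM in adults.

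Other genes with related basic zippers were listed by family and not by how they moved, though with earlier results of these data known. Of 37 listed, 36 were found by name, and 33 of those were measured well enough to test. None of the 33 passed by edgeR, against 0.0163% of all genes. By edgeR 4 were lower in infants at an unadjusted p under 0.05, against 6.73% of all genes. DESeq2 called 1 lower, Nfil3, against 0.979%. The median log2 fold change was -0.22, against 0.0016 over all genes, with 23 of 33 below 0, against 49.8%. Nfil3, a repressor also needed for some lymphoid and dendritic lineages, stood at 60.2, 44.8, 46.2 and 44.6 CPM in infants 1 to 4, against 62.3, 99.2 and 89.4 CPM in adults 1 to 3, which is -0.77 on the log2 scale (SE 0.18, edgeR adjusted p = 0.213). Infant 1 nearly reached adult 1. Bach2, a repressor that pairs with small Maf proteins, averaged 1.56 ± 0.423 CPM in infants (SD, n = 4) and 3.42 ± 0.804 CPM in adults (SD, n = 3), which is -1.13 on the log2 scale (SE 0.33, edgeR adjusted p = 0.283). Batf2 averaged 15.5 ± 6.71 CPM in infants (SD, n = 4) and 15.1 ± 5.30 CPM in adults (SD, n = 3), which is 0.04 on the log2 scale (SE 0.34), -0.27 without infant 3 and 0.33 without adult 3.

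Upstream of AP-1, the MAP kinase cascade passes signals to the Fos and Jun genes and proteins. Of 32 tested members 0 passed by edgeR, against 0.0163% of all genes, or by DESeq2, against 193 of 12261 genes. With so few passing over all genes, nothing is read from the 0. By edgeR at an unadjusted p under 0.05, 4 were lower in infants, against 6.73% of all genes. Another 2 were higher, and the share of higher genes is not given here. The median log2 fold change was -0.10, against 0.0016 over all genes. Mapk14, the p38 alpha kinase, averaged 61.1 ± 9.72 CPM in infants (SD, n = 4) and 80.0 ± 7.47 CPM in adults (SD, n = 3), which is -0.39 on the log2 scale (SE 0.15, edgeR adjusted p = 0.331). Mapk11, another p38 kinase, lay -0.82 on the log2 scale (SE 0.30, edgeR adjusted p = 0.325). Mapk3, which encodes ERK1, lay the other way, at 120.4 ± 10.8 CPM in infants (SD, n = 4) and 95.2 ± 12.5 CPM in adults (SD, n = 3), which is 0.34 on the log2 scale (SE 0.13, edgeR adjusted p = 0.337). Map3k8, which links LPS sensing to ERK, stood at 65.4, 134, 70.1 and 68.2 CPM in infants 1 to 4, against 74.4, 86.1 and 137 CPM in adults 1 to 3. Infant 2 lay apart from the other infants for this kinase, and adult 3 from the other adults. The log2 fold change was -0.24 (SE 0.29), -0.55 without infant 2 and 0.07 without adult 3.

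Serum response factor and its partners drive Fos transcription. In a list of 8 genes that also holds Etv3, a repressor, 0 passed by edgeR, against 0.0163% of all genes. By DESeq2 0 passed as well, against 193 of 12261 genes. By edgeR 1, Etv3, was lower at an unadjusted p under 0.05, against 6.73% of all genes. Srf averaged 16.9 ± 4.18 CPM in infants (SD, n = 4) and 21.7 ± 3.47 CPM in adults (SD, n = 3), which is -0.36 on the log2 scale (SE 0.21). Etv3, an ETS repressor, lay -0.56 on the log2 scale (SE 0.22, edgeR adjusted p = 0.339), and Mkl1, a co-activator of Srf, -0.42 (SE 0.32), or -0.16 without infant 2. In the list of factors that turn over AP-1 messages and proteins 0 of 16 passed by edgeR or DESeq2, against those same shares. By edgeR at an unadjusted p under 0.05, 4 were lower and 1 higher, against 6.73% of all genes for the lower ones. Zfp36, which encodes tristetraprolin and binds AU-rich elements, stood at 523, 131, 295 and 341 CPM in infants 1 to 4, against 491, 1248 and 1082 CPM in adults 1 to 3, which is -1.54 on the log2 scale (SE 0.41, edgeR adjusted p = 0.263). Infant 1 lay above adult 1, so the groups overlapped. For its relative Zfp36l1 the log2 fold change was -0.42 (SE 0.17), and for Btg2, a deadenylation factor, -1.08 (SE 0.42). Without adult 2 the value of Btg2 was -0.26.

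Of the partners of BATF and the genes they share, 0 of 13 passed by edgeR, against 0.0163% of all genes. By DESeq2 0 passed as well, against 193 of 12261 genes. By edgeR 4 were lower in infants at an unadjusted p under 0.05, against 6.73% of all genes. The median log2 fold change was -0.44, against 0.0016 over all genes. Irf4, the main partner in CD11b+ cells, stood at 47.1, 16.2, 24.3 and 39.7 CPM in infants 1 to 4, against 40.9, 43.4 and 57.6 CPM in adults 1 to 3, which is -0.57 on the log2 scale (SE 0.31) and -0.35 without infant 2, and the groups overlapped. Prdm1, which encodes Blimp-1, averaged 11.9 ± 4.09 CPM in infants (SD, n = 4) and 22.6 ± 4.496 CPM in adults (SD, n = 3), which is -0.92 on the log2 scale (SE 0.26, edgeR adjusted p = 0.283). Id2, a regulator of dendritic cell development, lay -0.51 on the log2 scale (SE 0.18), or -0.26 without adult 3, and Nfatc1 -0.56 (SE 0.20).

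Textbook targets of AP-1 spanned inflammatory genes, proteases and matrix genes. By edgeR 0 of 28 passed, against 0.0163% of all genes, and 9 were lower in infants at an unadjusted p under 0.05, against 6.73%. DESeq2 called 4 lower, Ccl3, Ccl4, Cxcl2 and Ptgs2, against 0.979%. Without adult 1, edgeR called Ptgs2, against 0.0796% of all genes. The median log2 fold change was -0.25, against 0.0016 over all genes, with 20 of 28 below 0, against 49.8%. Ptgs2, which makes prostaglandins, stood at 1.99, 0.736, 0.855 and 1.97 CPM in infants 1 to 4, against 8.53, 25.3 and 12.1 CPM in adults 1 to 3. Ccl4, a chemokine for T cells and monocytes, averaged 2.64 ± 0.657 CPM in infants (SD, n = 4) and 8.01 ± 2.26 CPM in adults (SD, n = 3). Cxcl2, a neutrophil attractant, stood at 3.08, 0.683, 0.513 and 2.02 CPM in infants 1 to 4, against 4.36, 14.97 and 9.81 CPM in adults 1 to 3. For Fos, Ptgs2 and Cxcl2 alike, infants 1 and 4 were the 2 highest infants and adult 1 the lowest adult. The lists were written with earlier results of these libraries known and are no independent evidence of a direction.

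Other immediate-early and heat-shock genes, which respond to stimulation and to cell handling, were measured beside the AP-1 genes. In 22 of 23 the log2 fold change was below 0, against 49.8% of all genes, with a median of -0.77. None passed by edgeR, against 0.0163% of all genes, and 17 were lower in infants at an unadjusted p under 0.05, against 6.73%. DESeq2 called 7 lower, against 0.979%. Egr1 stood at 7.58, 3.47, 3.71 and 5.91 CPM in infants 1 to 4, against 11.6, 19.7 and 24.8 CPM in adults 1 to 3, which is -1.85 on the log2 scale (SE 0.33, edgeR adjusted p = 0.155). Klf4 lay -2.20 on the log2 scale (SE 0.30, edgeR adjusted p = 0.0605) and Ier2 -1.03 (SE 0.22, edgeR adjusted p = 0.197). The heat-shock gene Hspa1a, chosen after its values were seen, ran from 67.4 to 363 CPM in infants and from 195 to 1392 CPM in adults, and these overlapped. The part of sorting and handling in the AP-1 values was not tested.

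The genes nearest to Fos were sought among 7732 well-expressed genes by the root mean square difference of log2 CPM, centred on each gene's mean over the 7 libraries. Nearest was Egr1 at 0.82, followed by Zfp36 at 0.98, Ccrl2 at 0.99, Cxcl1 at 1.00, Mpzl2 at 1.01 and Htra1 at 1.04, against a median of 1.82 over all ranked genes. Of the AP-1 genes, Atf3 was nearest to Fos at 1.25, then Jun at 1.40, with Jund and Fosl2 at up to 1.51, and Batf3 and Maff were farthest at 1.88. Ccrl2, a chemokine-binding receptor, stood at 26.8, 18.6, 20.9 and 23.5 CPM in infants 1 to 4, against 38.6, 93.3 and 90.4 CPM in adults 1 to 3. Like Fos, it had adult 1 as its lowest adult and infant 1 as its highest infant. The 7 libraries share 1 age contrast, so this measure includes the age difference itself. The cut on the average could be passed through the adults alone, as for Egr1, Cxcl1 and Mpzl2. Their mean log2 CPM was 2.32, 1.91 and 2.28 in infants, against 4.16, 3.57 and 3.79 in adults.

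**Figure D5:**
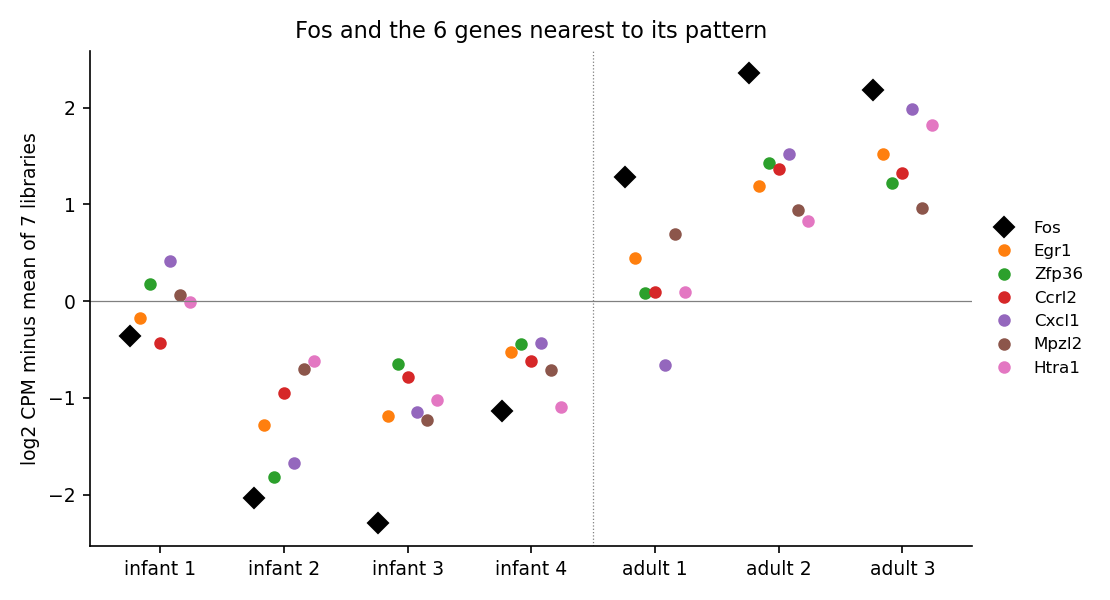
log2 CPM minus the mean of the 7 libraries for Fos (black diamonds) and the 6 genes nearest to it, infants left of adults. Fos lies lowest in infants 2 and 3, and in adult 1 all 7 genes lie below their level in adult 2.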

How the data were processed

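Each deposited table held 1 library and 1 row per gene. Whole read counts of exons, exon junctions and introns, total and unique, are the authors' values per the file headers. The authors' RPKM values, per the file headers, scale total exon reads by exon length and mapped reads, which was checked on the files, and the authors' TPM values, also deposited, were used in 1 alternative. The submitters' processing notes name mm10, TopHat2 2.0.14 and 2.1.0, Cufflinks 2.2.1.0, Cuffdiff 2.2.1 and Cuffnorm 2.2.1. The program, annotation and strand setting behind the tables are not stated there.

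Total exon reads were filtered by edgeR's filterByExpr, scaled by TMM and fitted for age over all genes with edgeR 4.0.16 (glmQLFit, robust, and glmQLFTest) in R 4.3.3, adjusted by Benjamini-Hochberg, with a threshold of 0.05. Intron and exon-exon reads were fitted likewise. Fold changes are infant over adult on the log2 scale, and the SE is the fold change over the square root of F. DESeq2 1.42.0 and limma 3.58.1 gave alternatives. The test was tried on simulated counts. Libraries of 1 age differed beyond sampling noise (chi-square per degree of freedom 17.7 to 150) and each counted once. A count of 3 reads, the limit that 0 reads allows, is 0.134 to 0.166 CPM unscaled, for counting error only. The AP-1 genes and all lists were chosen with earlier results of these data known. Besides the AP-1 genes, the text names the 3 tested genes of each list with the smallest p and 8 further genes whatever their p, with some named genes not reported here, and the 6 genes nearest to Fos. Itgam and Map2k7 were matched by gene ID, and Creb5 was not analysed here. The internal name of adult 3's table follows another naming series than the other 6, and its age is taken from its label.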

Additional observations from a re-analysis of the deposited data

Results flagged for a closer look

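In the 4 infant libraries, 4 of 42 sets of values examined had 1 far from the others by Dixon's test at its 95% critical value, which chance passes in about 1 in 20 groups. Junb stood at 968 CPM in infant 2, against 582 to 586 CPM in the other infants. Batf3 stood at 193 CPM in infant 2, against 152 to 158 CPM in the other infants. Map3k8 stood at 134 CPM in infant 2, against 65.4 to 70.1 CPM in the other infants. Nfil3 stood at 60.2 CPM in infant 1, against 44.6 to 46.2 CPM in the other infants. Infant 2 also had 13539 CPM of Malat1, a nuclear RNA, where the other infants had 3108 to 3728 CPM and the adults 3058 to 4411 CPM, and the part of that library's composition in the 3 values was not tested.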

How the results depend on the processing

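The number of AP-1 genes with a log2 fold change below 0 was 7 as reported from exon reads. Over the 20 other settings it was 6 to 8, with 8 to 10 genes fitted. From intron reads it was 5 of 7 as reported, Junb among them, and 4 to 7 over 8 settings. From exon-exon reads it was 3 as reported and 2 to 3 over 8 settings. Fos ranged from -3.75 to -3.04 and Jun from -1.19 to -0.84 over those 20 settings. Batf, at -0.13, was above 0 in 1 setting (0.11 without adult 3). From introns the sign changed in 1 of 8 settings for Batf, 4 for Batf3 and 2 for Maff. Over all genes, edgeR called 2, against 193 by DESeq2, 8 with no filter on low counts, 1 with the replicate block, 1 by limma on log2(RPKM + 1), on log2(RPKM + 0.1) and on log2(RPKM + 1) with no filter, and 2 to 10 when 1 library was left out. Of the related zipper genes, DESeq2 called 1, against 193 genes in all, and 0 passed with any library left out. Of the regulators and targets, DESeq2 called 4, against 193 in all, and edgeR with no filter called 1, against 8 in all. Leaving out 1 library gave 0 to 1, against 2 to 10 in all. With no filter, edgeR called Jun of the AP-1 genes, against 8 genes in all. The cause was not tested. The labels do not say whether the replicate numbers pair the libraries. Same-numbered libraries had correlations of deviations of 0.033, -0.035 and 0.10 over genes, and differently numbered ones -0.19 to 0.15. These values cannot decide whether libraries were paired. The replicate block left 0 AP-1 genes called. Depth limits Fosb and Fosl2, with at most 96 exon reads in a library.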
